A study of Mus musculus with 9 samples.

Results

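The features described here are the transcript clusters of a whole-transcriptome mouse array that carry no gene symbol in the annotation table of that array. A transcript cluster is a group of probes that the array design summarises to 1 value. Members were taken by their names: array controls (names starting with AFFX, ERCC or MG-) were left out, and a cluster was kept where the table listed it with no symbol or did not list it. Of 65956 transcript clusters, 33206 (50.3%) were members, and 32750 carried a symbol. The cluster name codes a chromosome, and 31390 members lay on the 19 autosomes. X and Y were left out of every count by chromosome. No level of signal entered the choice.

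Mammalian genomes are transcribed well beyond their annotated genes. The products include long non-coding RNAs, antisense RNAs, RNAs made at enhancers, introns of precursor RNA and extensions of known transcripts past their annotated ends. Many are scarce and are often found beside active genes, which makes transcripts of unknown identity a record of which stretches of the genome a tissue transcribes. In endothelium, MEF2 factors bind enhancers and promoters of genes that respond to blood flow.

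RNA came from the inner lining of the thoracic aorta, which was lysed in place with TRIzol pushed through the vessel, and each array holds 1 female mouse. ACDiEKO mice were f/f for Mef2a, for Mef2c and for Mef2d and carried Cdh5-CreERT2(+), a recombinase driven by an endothelial promoter and switched on by tamoxifen. Control mice were littermates with the same 3 floxed genes, Cdh5-CreERT2(-), so effects of the recombinase and of the deletion cannot be told apart. Both groups received 5 daily tamoxifen injections at 10 weeks of age. The labels give the harvest as 7 days after the first injection in one place and 14 days in another, and the time is not settled here. The series holds 4 control and 5 ACDiEKO arrays, and their number limits the precision.

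ACDiEKO replicates 1 and 2 held nearly the same values. Over all members their difference had a robust SD of 0.125, while each of 15 further pairs within a group had one of 0.197 to 0.264. They were averaged and counted as 1 sample, so 4 samples were compared with 4. The mean of 9 endothelial markers lay between 13.36 and 13.74 in control and between 13.23 and 13.58 in ACDiEKO, with overlap; 1 of the 9 rose and 2 fell. The mean of 14 smooth muscle markers lay between 7.95 and 8.85 in control and between 9.18 and 9.98 in ACDiEKO, without overlap. Of the 14, 6 rose and none fell (limma, adjusted over all clusters). Tagln (3.82), Myl9 (3.68) and Acta2 (3.19) rose most. Myh11 (-0.043), Cnn1 (-0.265), Myocd (-0.15) and Des (0.003) did not pass, nor did Mylk, Tpm2, Lmod1 and Sost (0.432 to 0.978). The mean is thus not a measure of smooth muscle content alone. Fibroblast, leukocyte, brown fat, erythrocyte and mesothelial marker means overlapped between the groups (1 fibroblast marker, Pi16, fell, -2.41). The leukocyte mean was 8.69 in ACDiEKO replicate 5, against 6.53 to 7.19 in control. The mesothelial mean was 8.19 and 8.43 in ACDiEKO replicates 4 and 5, against 5.95 to 7.13 in control. The brown fat mean ran from 9.36 to 12.24 in control and from 7.77 to 10.92 in ACDiEKO. In such bulk RNA, fewer cells of a type and less RNA per cell cannot be told apart. All levels and differences below are log2 units of the deposited values, ACDiEKO minus control. They are not given as folds, because the values reach 19.34 and so exceed the 16 log2 units of a 16-bit scanner.

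A missing symbol did not mean that no gene is known at the place. Of 21896 protein-coding genes in the RefSeq table (GRCm38), 1411 were carried by the symbol of no cluster. On the autosomes, 30310 members lay between 2 named clusters that RefSeq could place in order, and in 4436 of them (14.6%) at least 1 such unlisted protein-coding gene started between both neighbours, on either strand. The share was 22.4% among members that were higher, 17.0% among members that were lower and 14.5% among members that did not pass the test described below. Here and below, a named neighbour is a cluster with exactly 1 symbol, and 2146 clusters with several symbols were passed over. No member was given a gene name from its place.

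Members were dimmer than named clusters. The median of the mean level over 8 samples was 5.73 for members and 6.46 for clusters with a symbol. Of the members, 26.8% had a mean between 4 and 5 and 12.1% a mean between 8 and 10, against 16.5% and 16.6% of the named clusters. The upper end looked different. Members made up 39.3% of clusters with a mean of at least 8, but 56.9% (353 of 620) of those with a mean of at least 16 and 68.1% (77 of 113) of those with a mean of at least 18.

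The 5 brightest autosomal members lay near the top of the scale. Cluster TC0900000003.mm.1 had a mean of 19.23 ± 0.07 for the controls and of 19.24 ± 0.02 for ACDiEKO (SD, n = 4 each), and TC0200004196.mm.1 had 19.22 ± 0.07 and 19.21 ± 0.07. The other 3, TC0900000001.mm.1, TC0900000004.mm.1 and TC0900000005.mm.1, stood within the first 5 numbers of chromosome 9, as did the brightest one, and their group means ran from 18.80 to 19.15. In each of the 5, the groups overlapped. Values this close to the highest of the table (19.34) leave little room to show a rise.

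**Figure D1:**
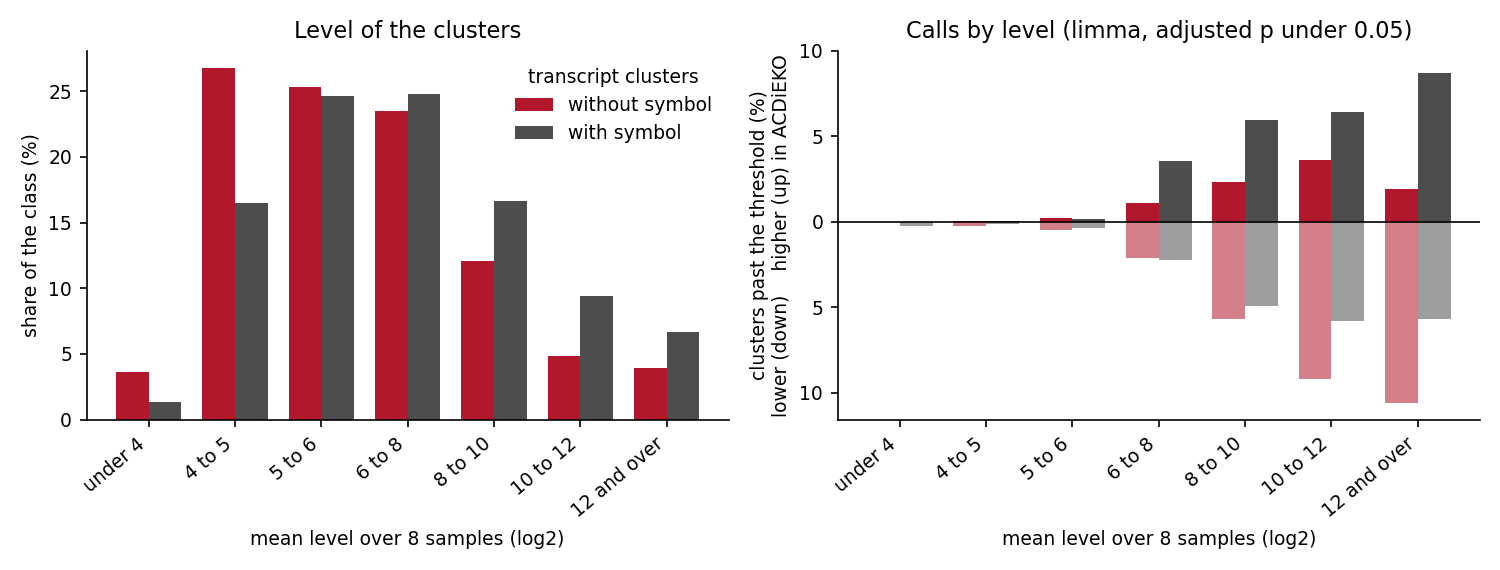
Left, share of each class (%, bars from 0) against the mean level over 8 samples (log2) for clusters without and with a symbol. Right, share of clusters in each level range that were higher (bars up) or lower (bars down, paler) in ACDiEKO past an adjusted p of 0.05; at 12 and over, 10.6% of members were lower and 1.92% higher, against 5.68% and 8.70% of named clusters.

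Comparing ACDiEKO with control asks which of these transcripts differ in endothelium made to lose the 3 MEF2 factors. Of the 33206 members, 1023 passed limma with Benjamini-Hochberg adjustment over all 65956 clusters at 0.05, 283 higher and 740 lower in ACDiEKO. That is 3.08% of members, against 4.28% of all clusters. By direction, 0.852% of members were higher, against 1.96% of all clusters, and 2.23% were lower, against 2.32%. Clusters with a symbol split the other way, 1013 higher and 788 lower. In 854 members every ACDiEKO sample lay above every control sample and in 2499 every one lay below. Together these are 10.1% of members; of all clusters 12.3% had no overlap, 4.74% with ACDiEKO higher and 7.55% with it lower.

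The sizes of the called differences ran from -3.50 to -0.20 among the lower members, with a median of -0.96, and from 0.29 to 7.10 among the higher ones, with a median of 1.08. A difference of at least 1 was seen in 513 called members, 156 higher and 357 lower, which is 1.54% of members against 1.94% of all clusters. At 3 and over the order turned, with 15 higher and 5 lower, and named clusters had 42 higher and 16 lower there. Thus most member calls were falls, at a share of members near that of all clusters (2.23% against 2.32%). Rises made up most of the few largest differences, among members and named clusters alike.

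The counts depended on single arrays and on the scaling. The 1023 calls were 461 without control replicate 3, 471 without control replicate 4, 394 without ACDiEKO replicate 4 and 652 without ACDiEKO replicate 5. The 283 rises were 160 without control replicate 2. The titles carry animal numbers, and those of control replicates 3 and 4 lie apart from the rest. Without these 2 controls 20 members passed (7 higher, 13 lower), and 415 did with a term for the animal numbers' 2 runs (117 higher, 298 lower). After each array was centred on its median, 385 members were higher and 598 lower (2.96% of members, against 4.41% of all clusters), so the share of calls that were higher was 27.7% as deposited and 39.2% after centring. The smooth muscle marker mean moved with genotype, and with it as a covariate in limma no member passed, with 2055 at an unadjusted p under 0.05. Of the 31 members named below by rule with a difference, 31 kept their sign under this covariate and 23 shrank by over 1.5 times, TC0500003431.mm.1 from 7.10 to 4.38 and TC0300001481.mm.1 from 5.47 to 1.20. Its part in the calls cannot be told apart from genotype here, since the marker means of the groups do not overlap.

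Calls followed the level. No member with a mean under 4 passed limma (53 of 1203 had an unadjusted p under 0.05, and 1 passed with an intensity trend and robust variance), 0.259% did between 4 and 5, 3.19% between 6 and 8, 8.02% between 8 and 10 and 12.8% between 10 and 12. Over all clusters the shares in these 4 ranges were 0.231%, 4.50%, 9.67% and 12.4%, so the members' shares lay near or below them. Of the 1023 called members, 691 had a mean of at least 8, a level that 6921 members reached. Of these 6921, 176 were higher (2.54%) and 515 lower (7.44%). Of the 1801 called named clusters, 1282 were that bright. Named clusters of that level gave 710 higher (6.63%) and 572 lower (5.34%) of 10708. Most calls thus stood at bright levels in both classes, and this was not particular to members. Members also varied more within a group, where differences between mice and measurement noise cannot be told apart with 1 array per mouse. Between 8 and 10, the median within-group SD was 0.308 for members and 0.181 for named clusters, and between 4 and 5 it was 0.115 and 0.081.

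Bright members were lower on the median. Over the 6921 members with a mean of at least 8, the sample medians were 9.78, 9.60, 9.80 and 9.82 in control replicates 1 to 4 and 9.63 (replicates 1 and 2), 9.60, 9.58 and 9.50 in ACDiEKO replicates 3 to 5. Control replicate 2 stood apart from the other controls and lay within the ACDiEKO range. The median difference per cluster was -0.157, and 65.9% of these members had a negative difference. Named clusters of the same level had a median difference of -0.014, with 52.3% negative. After centring the medians were -0.095 for members (60.2% negative) and 0.047 for named clusters (43.3% negative).

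The shift stood out within narrower ranges of level. Between 8 and 10, member medians were 8.96, 8.85, 8.96 and 9.02 in control and 8.82, 8.81, 8.75 and 8.71 in ACDiEKO, and the groups did not overlap. They also did not overlap between 6 and 8 (6.78 to 6.87 against 6.71 to 6.75) and between 10 and 12 (10.75 to 10.94 against 10.67 to 10.71). At 12 and over they did, since ACDiEKO replicate 5 (14.48) lay above control replicate 3 (14.42). Below a level of 6 the groups overlapped in each range, with shifts of -0.018 to -0.054. Centring turned the median difference per cluster in these 3 ranges to 0.043, 0.03 and 0.016, and took it from -0.077 to -0.016 between 6 and 8. It stayed at -0.096, -0.099 and -0.092 in the 3 ranges from 8 up.

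Array control features whose names hold MG and neg moved in the same direction. Those with a mean between 8 and 10 (1219 features) had medians of 8.92 to 9.08 in control and 8.69 to 8.93 in ACDiEKO, a shift of -0.18, beside -0.175 for members of that level, and their groups overlapped at 1 point (ACDiEKO replicate 3 at 8.93, control replicate 2 at 8.92). At 12 and over (260 features) the shift was -0.215, from 13.15 to 13.30 in control to 12.93 to 13.08 in ACDiEKO, without overlap. Features named MG and pos moved by 0.065 and 0.067 in the same ranges. What these control features measure is not stated in the sources used here, and their relation to the member shift was not tested.

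**Figure D2:**
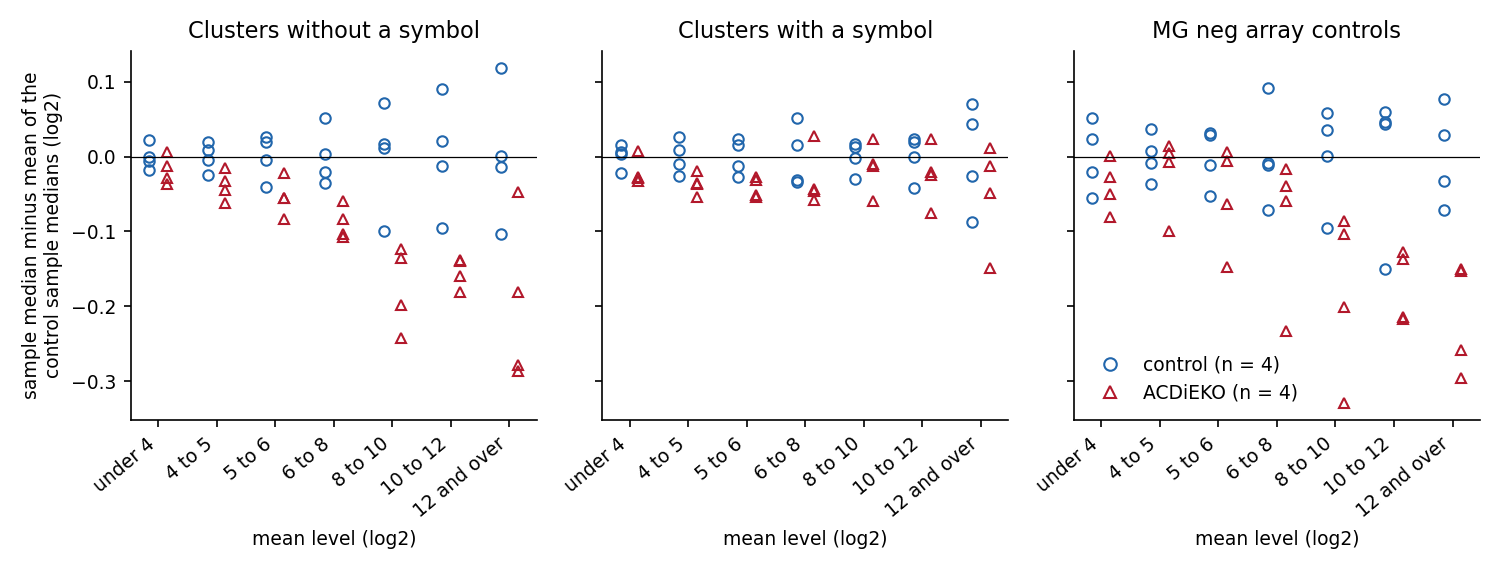
Median of each sample minus the mean of the control sample medians (log2), by level of the features, for clusters without a symbol, clusters with a symbol and MG neg array controls. Each circle is 1 of 4 control samples and each triangle 1 of 4 ACDiEKO samples; members between 8 and 10 shifted by -0.175, MG neg controls by -0.18 and named clusters by -0.014.

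By chromosome, falls outnumbered rises among the called members on each of the 19 autosomes, and on 18 of them after centring the arrays. On the autosomes together 954 of 31390 members passed, 267 higher and 687 lower. The called share was lowest on chromosome 5, at 2.18% (11 higher and 32 lower of 1968), and highest on chromosome 19, at 5.12% (15 and 29 of 860). Chromosome 6 had the highest share of falls, 3.81% (70 of 1836), with 0.926% higher. Of all clusters of the array 4.28% passed, 1.96% higher and 2.32% lower. Named clusters on chromosome 6 were lower in 2.58% and higher in 2.12%. The median difference of the members ran from -0.064 to -0.038 over the autosomes as deposited, and from -0.003 to 0.023 after centring, so its sign rested on the scaling.

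Named clusters showed another order, although their called share too was higher on chromosome 19 (6.93%) than on chromosome 5 (5.68%). On both chromosomes it lay above that of the members. On chromosome 6 their called share was 4.71%, almost that of the members there (4.74%), while on chromosome 13 it was 8.49%, against 2.94% of members. No test was made between chromosomes. The 19 members of the mitochondrial genome had a median level of 12.60 and a median difference of -0.34, with a within-group SD of 0.608, and none passed limma (5 had an unadjusted p under 0.05, also with an intensity trend and robust variance). Of 122 unplaced or unmapped members, 8 passed (6.56%, against 4.28% of all clusters) and all 8 were lower (2.32% of all clusters).

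**Figure D3:**
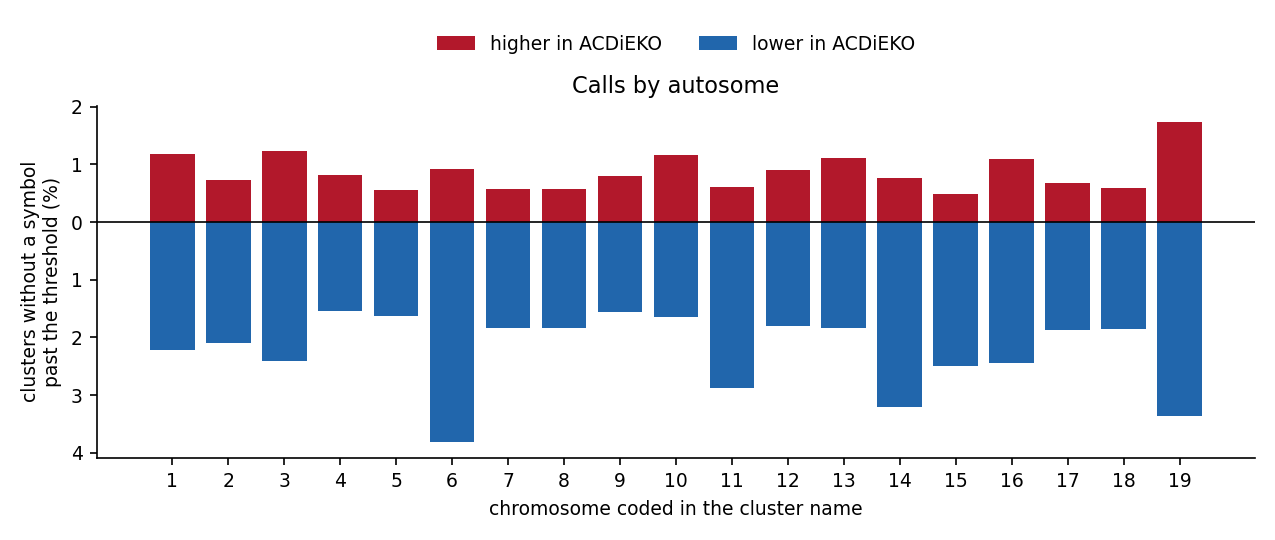
Share of clusters without a symbol past an adjusted p of 0.05 (%), higher (bars up) and lower (bars down) in ACDiEKO, for each autosome coded in the cluster name. Falls exceeded rises on each autosome, and were most frequent on chromosome 6 (3.81%, against 2.32% of all clusters of the array).

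Cluster numbers carried position. Named clusters on an autosome were ordered by number and set against the gene starts in the RefSeq table. On every autosome the numbers ran through the chromosome in 2 ascending blocks, and 97.3% of 28042 placed clusters followed the order of gene starts within their block (93.3% to 98.5% by chromosome). On 18 autosomes strand could be checked, and chromosome 18 was not among them. The first block held plus-strand genes in 99.6% of 8498 clusters with a known strand, and the second held minus-strand genes in 97.7% of 8802. A cluster with the next number in a block was therefore, in most cases, the next one along the same strand on these 18 autosomes. On chromosome 18 the order of starts held within 2 blocks (98.3% of 662 clusters), and the strand was not checked. Below, before and after refer to these numbers, which ascend with gene start in both blocks, and not to the direction of transcription. Gene ends and cluster coordinates were not used, so a cluster numbered after a gene may start within that gene.

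Members tended to move with the named cluster beside them. Among members that were higher and had a named cluster at the next number on either side, 57 of 167 (34.1%) had one that was higher too and 5 (2.99%) had one that was lower. Among members that were lower, 99 of 379 (26.1%) had a neighbour that was lower and 7 (1.85%) one that was higher. Members that did not pass had a higher neighbour in 4.40% of 18698 cases and a lower one in 3.22%. Among members with a mean of at least 8, the shares were 30.0% for a shared rise (33 of 110) and 26.7% for a shared fall (68 of 255), against 4.39% and 3.36% of those that did not pass.

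The likeness faded with distance. Across pairs of a member and a named cluster at the next number, Spearman's rho of their differences was 0.202 (24864 pairs), and 0.482 where both had a mean of at least 8 (2784 pairs). At a distance of 3 numbers the bright pairs had a rho of 0.2, at 5 numbers 0.119 and at 10 numbers 0.023. These pairs share arrays, samples and chromosome regions and are not independent, so rho is given as a description. Whether 2 neighbouring clusters are parts of 1 transcript cannot be read from the files.

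**Figure D4:**
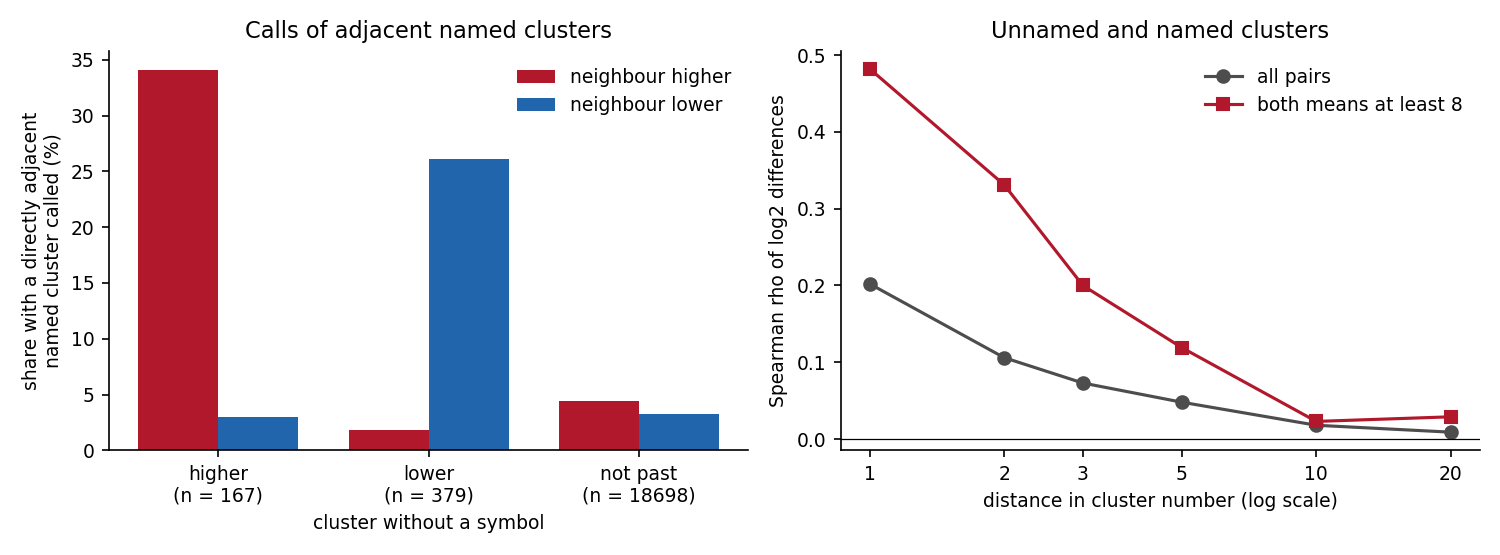
Left, share of members (%, bars from 0) with a named cluster at the next number that was higher or lower in ACDiEKO, for members that were higher, lower or not past the threshold. Right, Spearman's rho of the log2 differences of members and named clusters against their distance in cluster number (log axis), falling from 0.482 at 1 number to 0.023 at 10 for bright pairs.

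The largest rise of any autosomal member was that of TC0500003431.mm.1 in the second block of chromosome 5. Its levels were 9.50, 7.84, 8.33 and 7.42 in control replicates 1 to 4 and 16.47, 14.06, 15.89 and 15.06 in ACDiEKO. Every ACDiEKO sample lay more than 4 units above every control sample. The difference was 7.10 ± 0.62 (SE; limma, adjusted p = 0.00334), above the largest rise of a named cluster (5.68). Its named neighbours were Ap1s1, an adaptor subunit of vesicle coats (0.47, adjusted p = 0.0228), and Trim56, a ubiquitin ligase of antiviral defence (-0.29, adjusted p = 0.273). Exactly 1 protein-coding gene of the RefSeq table that no cluster names started between them.

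Next came TC0300001481.mm.1, which lay directly beside Ddah1, an enzyme that breaks down an inhibitor of nitric oxide synthase. Its levels were 8.58, 7.13, 5.63 and 5.51 in control and 13.22, 10.86, 13.09 and 11.54 in ACDiEKO. The controls spread over 3 units, and the groups still did not overlap. The difference was 5.47 ± 0.84 (adjusted p = 0.0165; 0.0512 without control replicate 3 and 0.0572 without ACDiEKO replicate 4). Ddah1 rose by 2.61 and the named cluster on the other side, the gene model Gm17501, by 3.85.

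At other places too, a member directly after a named gene rose with it. TC0300001392.mm.1, next to the endothelial sialomucin Emcn (3.72), had levels of 7.99, 7.36, 7.18 and 6.47 in control and 11.29, 12.35, 11.38 and 10.79 in ACDiEKO, a difference of 4.20 (adjusted p = 0.00428). TC0100003755.mm.1, next to the growth factor gene Tgfb2 (4.84), had 8.98, 8.03, 7.16 and 6.43 in control and 11.72, 11.06, 12.28 and 11.44 in ACDiEKO, a difference of 3.98 (adjusted p = 0.0119). TC1900001324.mm.1, next to the zinc finger factor Glis3 (3.31), had 7.51, 6.89, 5.98 and 6.34 in control and 10.62, 10.62, 11.74 and 11.12 in ACDiEKO, a difference of 4.34 (adjusted p = 0.00336). In each of these, the lowest ACDiEKO sample stood above the highest control sample by at least 2 units.

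TC0900000623.mm.1 rose without its named neighbours. Its levels were 8.77, 8.73, 7.84 and 8.27 in control and 11.93, 12.98, 13.16 and 12.36 in ACDiEKO, a difference of 4.21 ± 0.32 (adjusted p = 0.00253). The member at the next number, TC0900000624.mm.1, was higher too, and this run of 2 had a median difference of 3.25. The nearest named neighbours of TC0900000623.mm.1, each 2 numbers away, were Arhgap20, a regulator of small GTPases (-0.44, adjusted p = 0.27), and the gene model 4933407I05Rik (-0.015, adjusted p = 0.852). RefSeq held no unlisted protein-coding gene between them.

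Among the falls, TC1600001090.mm.1 changed most. It stood at 12.41, 12.68, 13.13 and 12.48 in control and at 9.26, 10.14, 8.39 and 8.92 in ACDiEKO, a difference of -3.50 ± 0.36 (adjusted p = 0.00511). The controls lay within 1 unit of each other, above every ACDiEKO sample by at least 2. Beside it, the aspartyl protease Bace2 fell by 1.46 (adjusted p = 0.0132), and the gene model Gm9242 on the other side rose by 1.18 (adjusted p = 0.014).

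TC1700000909.mm.1 and TC1700000911.mm.1 followed the zinc finger gene Trerf1, which fell by 1.49. The first had levels of 11.35, 10.55, 12.03 and 11.71 in control and 7.69, 8.78, 8.22 and 8.32 in ACDiEKO (-3.16, adjusted p = 0.00632). The second had 13.53, 13.70, 14.66 and 14.39 in control and 10.47, 11.59, 11.15 and 10.80 in ACDiEKO (-3.07, adjusted p = 0.00558). Both fell further than the named gene itself. With TC1700000910.mm.1 between them they formed a run of 3 members, with a median difference of -3.07.

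TC0600002021.mm.1 stood beside Podxl, a sialomucin of the endothelial surface, which fell by 1.60. Its levels were 12.15, 11.54, 12.92 and 12.46 in control and 9.69, 10.06, 8.47 and 9.21 in ACDiEKO, a difference of -2.91 ± 0.41 (adjusted p = 0.0122). No sample of one group reached the other.

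The remaining members of the 8 largest falls were less stable. TC1400000125.mm.1 fell by 3.04 next to the gene model B230110C06Rik (-1.58, adjusted p = 0.0325), and its call ended without control replicate 3 (adjusted p = 0.0517) and without control replicate 4 (0.052). TC0600000184.mm.1, numbered after Cped1, fell by 2.84, and its call ended without control replicates 3 or 4 or ACDiEKO replicate 4 (0.0522 to 0.0565). TC1600000939.mm.1 fell by 3.03 next to the junction gene Jam2 (-1.21, adjusted p = 0.0658); without control replicates 1, 3 or 4 or ACDiEKO replicates 4 or 5 its call ended (0.0543 to 0.0687). TC1400000079.mm.1 fell by 2.86 next to Kctd6 (-0.13, adjusted p = 0.244), and its call ended in 6 of the 9 fits that leave out 1 array: any 1 control, ACDiEKO replicate 4 or ACDiEKO replicate 5 (0.0586 to 0.0857). Fits without ACDiEKO replicate 1 or 2 kept the other of that near-identical pair, so they lost no sample. All 31 members named by rule with a difference lost their call without control replicates 3 and 4 together, with adjusted p of 0.0522 to 0.238, and 12 of 31 kept it with a term for the animal numbers.

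**Figure D5:**
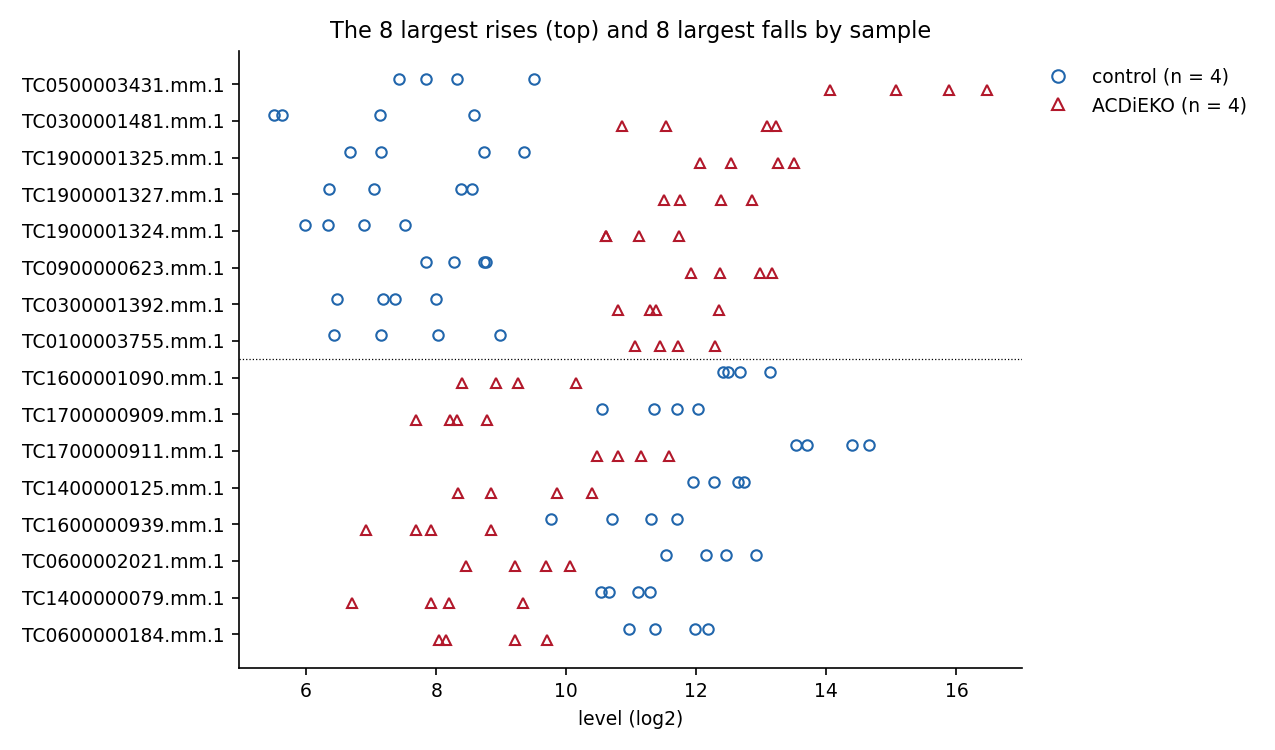
Level (log2) in each sample of the 8 largest rises (above the dotted line) and the 8 largest falls among autosomal members past the threshold without overlap. Circles are 4 control samples and triangles 4 ACDiEKO samples; the top member, TC0500003431.mm.1, has controls from 7.42 to 9.50 and ACDiEKO samples from 14.06 to 16.47.

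Some called members were consecutive. Of 687 autosomal members that were lower, 211 (30.7%) stood in 85 runs of 2 or more directly consecutive members with the same call, and of 267 that were higher, 69 (25.8%) stood in 29 such runs. The longest run had 6 members, TC1800001642.mm.1 to TC1800001647.mm.1, on chromosome 18. The nearest named cluster before it was Setbp1, a gene for a nuclear protein that binds SET, which fell by 1.37 (adjusted p = 0.0153), and the next one after it, Gm25824, differed by 0.15 (adjusted p = 0.456).

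The members of that run stood at different levels and fell by unlike amounts. TC1800001645.mm.1 fell most, from 11.44, 11.49, 12.31 and 12.36 in control to 9.64, 10.35, 10.06 and 9.73 in ACDiEKO (-1.96, adjusted p = 0.0121). TC1800001647.mm.1, at the end of the run, fell least, from 8.23, 8.05, 8.33 and 7.75 to 6.91, 7.28, 7.04 and 7.34 (-0.95, adjusted p = 0.0183; 0.0505 without control replicate 3 and 0.0631 without ACDiEKO replicate 4). The other 4 fell by 1.45 to 1.83. For TC1800001644.mm.1 (adjusted p = 0.0407) the call ended without control replicates 2, 3 or 4 or ACDiEKO replicates 3, 4 or 5 (0.0587 to 0.11). No control sample overlapped an ACDiEKO sample in any of the 6.

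There were 4 runs of 5, chosen for description after their values were seen. On chromosome 19, the 5 members directly or closely after Glis3 rose with a median of 4.34, and 3 of them are among the 8 largest rises. TC1900001325.mm.1 in that run went from 9.35, 8.74, 6.67 and 7.15 in control to 12.54, 12.05, 13.51 and 13.25 in ACDiEKO (4.86, adjusted p = 0.0107), and TC1900001327.mm.1 rose by 4.54 (adjusted p = 0.00817). The pseudogene Rps15a-ps2 after the run differed by -0.018.

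The other runs of 5 fell. They stood after Cped1 on chromosome 6 (median -2.53, Cped1 -2.03), after the growth hormone receptor gene Ghr on chromosome 15 (-1.71, Ghr -1.22) and after Smg6, a nuclease of nonsense-mediated decay, on chromosome 11 (-1.15, Smg6 -1.19). In each of these the named gene before the run passed limma in the same direction, and the named cluster after it did not pass: Wnt16 differed by -0.06, Gm22031 by -0.084 and Mir212 by 0.038.

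Members near 30 listed genes of the flow response, cell division, smooth muscle and the floxed factors were read as a group, because these genes include some of the largest changes of the series. Within 5 numbers of their clusters lay 135 members, of which 4 rose and 8 fell. That is 8.89%, against 4.28% of all clusters, and the 12 stood beside 8 of the 30 genes. The list was chosen with earlier results of these data known, so nothing is read from the higher share. Of 27 listed genes that changed, 25 had members within that distance, and 17 of these had none that passed. Some of those members fell beside their gene without overlap and missed the threshold. Chosen after their values were seen, these include TC0300000768.mm.1 next to the potassium channel gene Kcnn3 (-1.59, adjusted p = 0.0503; 0.0499 after centring) and TC1500000354.mm.1 next to Pkhd1l1 (-2.23, adjusted p = 0.0715).

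In the flow response group, the 8 members within 5 numbers of Klf4 were dim, with control means of 4.01 to 5.69. Of all members, none with a mean under 4 passed limma, 0.259% did between 4 and 5 and 0.714% between 5 and 6. Klf4, a transcription factor induced by laminar flow, fell by 4.09, and none of these 8 passed (the smallest unadjusted limma p was 0.126, and none lay under 0.05). Klf2, its relative, fell by 3.55, and 1 of 7 members nearby fell: TC0800000828.mm.1 went from 7.19, 7.69, 7.50 and 7.40 to 6.80, 6.94, 6.70 and 7.06 (-0.57, adjusted p = 0.0475; 0.0576 to 0.128 without control replicates 2, 3 or 4 or ACDiEKO replicates 3, 4 or 5; 0.0563 after centring). TC0800000828.mm.1 lay 5 numbers from Klf2, with the gene model 1700030K09Rik (0.001) between them. Near Nos3, the endothelial nitric oxide synthase, 1 of 3 members fell, TC0500000208.mm.1, from 4.81, 4.86, 4.89 and 4.83 to 4.46, 4.48, 4.56 and 4.65 (-0.31, adjusted p = 0.0219). It lay 4 numbers from Nos3, with Gm9836 between them. Its nearest named clusters differed the other way without passing, Nupl2 by 0.335 and Gm9836 by 0.242. After centring its difference was -0.25 (limma, adjusted p = 0.0495). Its call ended in 5 of the 9 fits that leave out 1 array, those without control replicates 2, 3 or 4 or ACDiEKO replicates 3 or 4 (0.0517 to 0.0624). Among the rest, the fits without ACDiEKO replicate 1 or 2 lost no sample.

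Around Klk1, a tissue kallikrein that fell by 4.74, the 2 members between Klk1b24 and Klk1b5 fell with the family. For both members, 2 unlisted protein-coding genes of the RefSeq table started between these neighbours, on either strand. TC0700000793.mm.1 went from 8.02, 9.30, 9.77 and 9.14 to 7.18, 6.93, 6.99 and 7.06 (-2.01, adjusted p = 0.0224), and TC0700000794.mm.1 from 7.70, 8.77, 9.39 and 8.67 to 6.76, 6.82, 5.98 and 6.42 (-2.14, adjusted p = 0.0228). The ACDiEKO samples of the first lay within 0.25 of each other. Klk1 and the Klk1b genes are close copies of each other, so probes of 1 may read another and these values are uncertain. The calls ended without control replicates 2 or 4 or ACDiEKO replicates 4 or 5 in both (0.0538 to 0.0733), and for the first also without ACDiEKO replicate 3 (0.058).

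Near Emcn 4 of 7 members passed, and they moved both ways. TC0300001392.mm.1 rose with Emcn as given above, while the very bright TC0300001393.mm.1 fell from 17.82 ± 0.10 to 17.50 ± 0.07 (-0.32, adjusted p = 0.0398) and TC0300001386.mm.1 from 10.62 ± 0.16 to 9.92 ± 0.27 (-0.69, adjusted p = 0.0422). A further fall, chosen after its values were seen, was that of TC0300001389.mm.1, from 9.81, 9.43, 9.29 and 9.63 to 8.56, 9.04, 8.98 and 8.63 (-0.73, adjusted p = 0.0424). It kept its call after centring (0.0486) and lost it without any 1 control or without ACDiEKO replicates 3, 4 or 5 (0.0531 to 0.115). The other two falls missed the threshold after centring (adjusted p = 0.063 and 0.0672), and without control replicates 2, 3 or 4 or ACDiEKO replicates 4 or 5 (0.0667 to 0.107). TC0300001393.mm.1 also missed it without ACDiEKO replicate 3 (0.0529) and TC0300001386.mm.1 without control replicate 1 (0.0966).

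Single members passed beside 4 other listed genes. TC0100003755.mm.1 rose with Tgfb2, as given above. TC1000000220.mm.1, 5 numbers from the matricellular gene Ccn2, went from 7.23, 6.71, 6.58 and 6.45 to 8.08, 7.58, 8.14 and 7.74 (1.14, adjusted p = 0.0248; 0.0508 to 0.0774 without control replicates 2, 3 or 4 or ACDiEKO replicates 4 or 5), although Med23 lay between them and differed by 0.013. TC0600001318.mm.1, 5 numbers from the chemokine gene Cxcl12, rose by 0.72 (adjusted p = 0.0187; 0.0582 without control replicate 3), although Gm9946 lay between them and differed by 0.031. TC0600001973.mm.1, directly after Prrt4 (-4.44), fell by 0.43 (adjusted p = 0.0374; 0.0701 after centring, and 0.0616 to 0.0957 without any 1 control or without ACDiEKO replicates 4 or 5).

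Beside the cell division genes Mki67 and Top2a, which rose by 5.68 and 4.09, none of 5 and none of 3 members passed limma, nor did any have an unadjusted p under 0.05. Control means of these members ran from 3.89 to 7.14 and from 4.61 to 5.70, below the level of 8 above which most called members stood. Beside the smooth muscle genes Acta2, Tagln and Myl9 none of 4 members each passed, and 1 beside each gene had an unadjusted p under 0.05. At the floxed genes Mef2a, Mef2c and Mef2d, which differed by 0.12, 0.058 and 0.23 without passing, none of 7, 7 and 2 members passed (2, 0 and 0 had an unadjusted p under 0.05), and their median differences were 0.043, 0.109 and -0.035.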

How the data were processed

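Endothelial RNA of the mouse thoracic aorta (5 ng per array, per the labels) was measured on 9 arrays, 1 mouse each. The authors deposited log2 values made with RMA, per the submitters' processing notes. A further scaling step, the genome build and the array annotation version are not given in the sources used here. The RefSeq table (GRCm38.p6) served for names and gene order, and 827 symbols were updated through gene IDs. All 65956 transcript clusters were fitted with limma 3.58.1 in R 4.3.3 (lmFit, eBayes; 4 control against 4 ACDiEKO samples, no covariate, no filter, no collapse), two-sided, with Benjamini-Hochberg adjustment over all of them. All adjusted p-values in the text come from such limma fits. Members, lists and rules were chosen with earlier results of these data known. By rule, the text names the 8 largest rises and 8 largest falls past the threshold without overlap, on the autosomes, the 5 brightest members, the longest run and up to 3 called members beside each listed gene, and further ones are named as chosen after their values were seen. On simulated data (5 runs, 65956 clusters, 200 changed), limma recovered 72.2% of changes of 1 log2 unit and 91.6% of changes of 2, with 5.43% false calls. The noise was normal and independent at each cluster's own SD, so false calls from effects shared between clusters were not covered. The changed clusters were drawn at random from all levels. Members with a mean of at least 8 had a median within-group SD of 0.299, against 0.153 over all clusters, and their recovery was not simulated apart. Alternatives are given in the closing section. Member sequences were not used here.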

Additional observations from a re-analysis of the deposited data

Results flagged for a closer look

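In 74 groups of 4 samples checked for a sample far from the others, 1 was found, and chance gives about 1 in 20. In TC0200004196.mm.1, control replicate 2 had a level of 19.11, below the other controls (19.24 to 19.26). The ACDiEKO samples ran from 19.15 to 19.31.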

How the results depend on the processing

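Each count below is members past the threshold, then higher and lower. Against 1023 (283 and 740), leaving out 1 array gave 394 to 999 (120 to 276 and 274 to 723). Without ACDiEKO replicate 1 or 2 the other of that pair stood for the sample, so no sample was lost (999 and 970). The fits that lost a sample gave 394 to 766 (120 to 233 and 274 to 584). All 9 arrays as samples gave 1760 (482 and 1278), and leaving out both near-identical arrays gave 454 (137 and 317). A term for the animal numbers' 2 runs gave 415 (117 and 298), and leaving out the 2 controls whose animal numbers lie apart gave 20 (7 and 13). The smooth muscle marker mean as a covariate gave 0 (0 and 0), with 2055 at an unadjusted limma p under 0.05. At an adjusted p under 0.01 there were 192 (58 and 134), under 0.1 there were 1893 (507 and 1386), and with a difference of at least 1 there were 513 (156 and 357). A filter on clusters with at least 4 samples above the table median of 6.03 raised the higher count to 426. Centring, quantile normalization, the stricter filter, an intensity trend and array weights kept each count within 1.5 times.

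With the number in the titles as a replicate block on all 9 arrays, 596 members passed (220 and 376). The numbers do not pair the arrays: deviations of same-numbered arrays from their group means had correlations of -0.061, -0.08, 0.024 and -0.022 across clusters.

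The median difference of bright members (mean of at least 8) stayed negative in all 21 other fits, from -0.169 to -0.094, and that of bright named clusters ran from -0.024 to 0.048. Of 31 members named by rule with a difference, 15 kept their call without each array in turn and none changed direction in any fit. The cause of the losses was not tested. The number of arrays limits the precision.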
